A study of Mus musculus with 9 samples.

Results

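Neuropilin-1 (Nrp1) and 3 class 4 semaphorins, Sema4a, Sema4b and Sema4d, were followed across CD4+ T cells before and after conversion into induced regulatory T cells (iTreg cells). They are 4 of the 14912 genes in the table, taken by symbol, and all 4 had enough signal to enter the fit. These 4 genes were picked for study with their levels in these 9 libraries already known, so their values are given as a description without a test.

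The libraries fall into 3 groups of 3. All cells came from the strain B6.Cg-Foxp3tm2(EGFP)Tch/J, labelled hemizygous for Foxp3<tm2Tch>, in which eGFP reports transcription of Foxp3, the factor that defines Treg cells; ages were not among the labels. The day 0 group held eGFP-negative CD4+ T cells taken before culture. The TGFβ-iTreg group was eGFP-positive and CD4+, collected on day 5 after stimulation through CD3 and CD28 (each antibody at 1 µg/ml) in medium that contained 300 U/ml IL-2 and 10 ng/ml TGFβ. The mTO-iTreg group was also eGFP-positive and CD4+ and collected on day 5, but had shared its culture with organoids of mouse colorectal tumours (mTO); its medium had 20 U/ml IL-2 and the 2 antibodies, and TGFβ is not among the listed additions. Nothing in the labels ties replicates to different animals or cultures, so the p-values given for other genes measure only the spread between these libraries, which may be technical. Same-numbered day 0 and TGFβ-iTreg libraries carry neighbouring names, while the mTO-iTreg libraries carry names of another form. What these names mark is not stated, and it cannot be told apart from the mTO-iTreg group. The day 0 group differs from both others in culture, stimulation and eGFP status at the same time, and the 2 iTreg groups differ in TGFβ, IL-2 dose and organoids, and these cannot be told apart.

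Semaphorins are secreted or membrane-bound proteins first known for steering growing axons, and several also act between immune cells. They signal through plexins, which carry an intracellular GTPase-activating domain, while neuropilins are co-receptors with a short cytoplasmic tail that bind class 3 semaphorins and members of the VEGF family. On T cells, neuropilin-1 is widely used, with the transcription factor Helios (Ikzf2), as a marker of Treg cells that arise in the thymus, and it has been described as a receptor for semaphorin 4A and for latent TGFβ. Semaphorin 4A is made by dendritic cells and by activated and helper T cells; semaphorin 4D (CD100) is abundant on resting T cells and binds plexin-B1, plexin-B2 and CD72; semaphorin 4B is a less studied membrane protein of the same class.

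The 2 genes that set the groups apart most were Nrp1 and Sema4a, and the sequences before their annotated starts are shown because these levels moved in opposite directions. Sequences come from RefSeq on GRCm38.p6, 250 bases ending just before an annotated start, written 5′ to 3′ along the gene. Capitals mark CAGAC on either strand, the core of the Smad box bound by the transcription factors of TGFβ signalling. The Nrp1 window lies on the plus strand at chr8:128358823-128359072, downstream of the first GENCODE M21 start of the gene, and the Sema4a window, before the most upstream of 4 listed starts, on the minus strand at chr3:88461183-88461432; 0 bases of either fall in an annotated exon.
Nrp1: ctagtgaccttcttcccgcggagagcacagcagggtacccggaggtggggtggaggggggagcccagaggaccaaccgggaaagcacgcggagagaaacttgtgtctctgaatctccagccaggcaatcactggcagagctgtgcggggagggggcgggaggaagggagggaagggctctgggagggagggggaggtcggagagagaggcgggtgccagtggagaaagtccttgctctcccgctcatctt
Sema4a: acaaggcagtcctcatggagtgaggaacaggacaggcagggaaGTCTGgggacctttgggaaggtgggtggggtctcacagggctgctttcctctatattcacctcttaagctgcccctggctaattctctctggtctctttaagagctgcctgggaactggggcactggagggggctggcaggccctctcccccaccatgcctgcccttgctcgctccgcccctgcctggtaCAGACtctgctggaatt
The Sema4a window holds 2 matches and the Nrp1 window holds 0, while 42.2% of 32851 windows of the same length from all genes hold at least 1. The other 3 Sema4a windows hold 0, 2 and 1 matches. The 3 windows of Sema4d, whose level differed little between groups, hold 1, 1 and 0, and both Sema4b windows hold 0. Smad box matches were thus not particular to Sema4a, and their link to the levels was not tested. Searches on both strands for TGANTCA (AP-1), GTAAACA (forkhead), CTTTGA (TCF/LEF) and ACGTG (hypoxia response) found 0 in the Nrp1 window and 0 in all 4 Sema4a windows; 6.75%, 3.17%, 13.8% and 16.6% of all windows hold them. Both Sema4b windows hold 2 matches to ACGTG, counted as overlapping where a palindrome matches on both strands, and 1 of the 3 Sema4d windows holds TGANTCA. The Sema4d window with the AP-1 match also holds 1 hypoxia response match. The Nrp1 window has 64.4% G and C and 11 CpG, and the Sema4a window 59.6% and 2 CpG, against medians of 52.4% and 6.0. Reads from the 3′ end of transcripts, as this library type gives, do not show which start was used, and a match of letters is no evidence of binding.

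Depth varied between libraries. The libraries held 2078223 to 9944952 counts, and a single count was worth 0.494 to 2.69 normalized counts, the unit of all levels given here. Genes of CD4+ T cells were high in all 9 libraries, with 9 of 10 markers in the table, all above 0, and summed levels of 18650 to 32680. Summed levels of 6 CD8+ T and NK cell genes were 357.5 to 781 on day 0, 224 to 322 in TGFβ-iTreg cells and 592.5 to 1365 in mTO-iTreg cells. In mTO-iTreg cells this sum was mostly Eomes, at 685, 1243 and 495, against 26.9 to 113 on day 0. Klrd1 went the other way, at 199 to 444 on day 0 and 2.66 to 4.77 in mTO-iTreg cells. Cd8b1 was at 109 to 121 on day 0 and 78.4 to 107 in mTO-iTreg cells. One library stood apart: the summed level of 10 dendritic cell and macrophage genes was 3782 in day 0 replicate 3, against 884 and 554 in day 0 replicates 1 and 2, 123 to 231 in TGFβ-iTreg cells and 375 to 478 in mTO-iTreg cells. Of 23 calls against day 0 on pathway genes named below, 18 passed without this library and 5 did not, and ratios that it moved by over 1.5 times are given without it. In bulk RNA, fewer cells expressing a gene and less of its RNA per cell cannot be told apart.

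Nrp1, the co-receptor of the set (chromosome 8, 128358604 to 128503363, GRCm38), was high in TGFβ-iTreg cells and at similar low levels in the other groups. It was read at 109, 53.8 and 159 normalized counts in day 0 replicates 1, 2 and 3, at 637, 667 and 1004 in TGFβ-iTreg cells, and at 170, 102 and 89.7 in mTO-iTreg cells. All 3 TGFβ-iTreg libraries lay above all 6 others, a separation that 18.0% of fitted genes had upward from day 0 and 18.7% had downward from TGFβ-iTreg to mTO-iTreg cells. The day 0 and mTO-iTreg ranges overlapped. The group means were 107 ± 52.8, 769 ± 204 and 120.4 ± 43.2 (SD, n = 3). The TGFβ-iTreg mean was 7.17-fold the day 0 mean (log2 difference 2.93 ± 0.36 SE, on log2 of the value plus 1) and 6.39-fold the mTO-iTreg mean (log2 difference of mTO-iTreg from TGFβ-iTreg -2.69 ± 0.36 SE). The difference between mTO-iTreg and day 0 was 0.24 ± 0.36, smaller than its error. Of the 10983 genes fitted, 260 differed at least as far upward between TGFβ-iTreg and day 0 cells (2.37%), and 159 as far downward between mTO-iTreg and TGFβ-iTreg cells (1.45%). Within groups, the spread was wider than counting error: the 95% Poisson interval was 961 to 1049 for TGFβ-iTreg replicate 3, from 2032 counts, against 626 to 710 for replicate 2.

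On day 0 the highest Nrp1 value was in replicate 3, the library with the raised dendritic cell and macrophage genes, and the part of that in the Nrp1 level was not tested. Without it the day 0 mean was 81.3, and the TGFβ-iTreg mean was 9.46-fold higher. Of 8 genes listed for plasmacytoid dendritic cells, which carry neuropilin-1, 7 were in the table and summed to 228.5 to 390.3 on day 0, 1079 to 1395 in TGFβ-iTreg cells and 2458 to 3836 in mTO-iTreg cells, mostly from Irf8 and Ccr9, which T cells also express. Of the others, Siglech was at 0, 8.06 and 17.9 on day 0, at 0 in all 3 TGFβ-iTreg libraries and at 0, 0 and 4.65 in mTO-iTreg cells. Cox6a2 was at 0, 0 and 34.8 on day 0, at 0 in all 3 TGFβ-iTreg libraries and at 53.9, 133 and 149 in mTO-iTreg cells. Bst2 was at 27.4 to 56.1 on day 0, 49.2 to 65.1 in TGFβ-iTreg cells and 86.4 to 115 in mTO-iTreg cells. In the same order, Tcf4 was at 0 to 36.9, 22.2 to 27.1 and 44.0 to 78.4, and Ly6d at 0 to 21.1, 0 to 26.2 and 1.86 to 21.8. The part of such cells in the Nrp1 level was not tested.

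**Figure D1:**
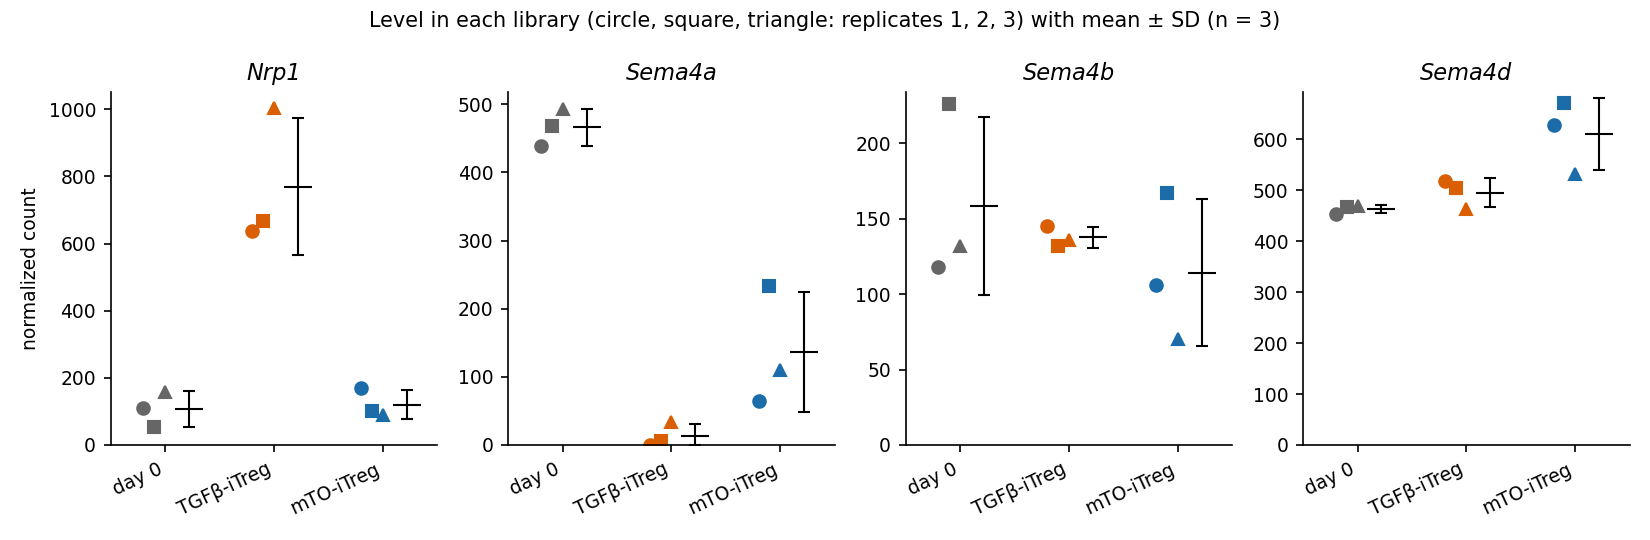
Normalized count (vertical axis, from 0) of the 4 genes in each of 9 libraries by group; black bars are the mean ± SD of 3 libraries, with the lower SD bar of Sema4a in TGFβ-iTreg cells ending at 0. Nrp1 sits at 637 to 1004 in TGFβ-iTreg cells and at 53.8 to 170 elsewhere, Sema4a is at 439 to 493 on day 0 and at 0 to 33.1 in TGFβ-iTreg cells, and Sema4b and Sema4d span narrower ranges.

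Ikzf2 and Foxp3 had their highest levels in mTO-iTreg cells, unlike Nrp1, while the eGFP transcript was highest in TGFβ-iTreg cells, like Nrp1. Ikzf2 was at 61.4, 61.8 and 74.9 on day 0, at 290.2, 149 and 342 in TGFβ-iTreg cells and at 1020, 792 and 792 in mTO-iTreg cells, with no overlap between any 2 groups. It was higher in mTO-iTreg than in TGFβ-iTreg cells by 1.81 ± 0.27 (log2, limma adjusted p = 0.00031), while Nrp1 stood 6.39-fold lower. Foxp3 was at 14.8 to 19.7 in TGFβ-iTreg cells and 37.2 to 81.0 in mTO-iTreg cells (log2 difference 1.80 ± 0.77, limma adjusted p = 0.10), from 60 and 284 counts. The eGFP transcript was at 588 to 695 in TGFβ-iTreg cells and 262 to 462 in mTO-iTreg cells (log2 difference of mTO-iTreg from TGFβ-iTreg -0.96 ± 0.34, limma adjusted p = 0.053). The eGFP difference passed in 10 of 20 alternatives and the Foxp3 difference in 4 of 20. Foxp3 and eGFP, which reports its transcription, thus had opposite orders between the iTreg groups, and neither difference passed outside these alternatives. In the mTO-iTreg libraries, which had the most Ikzf2, Nrp1 was within the day 0 range or close to it. Values of 102 and 89.7 lie inside 53.8 to 159, and 170 lies above.

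**Figure D2:**
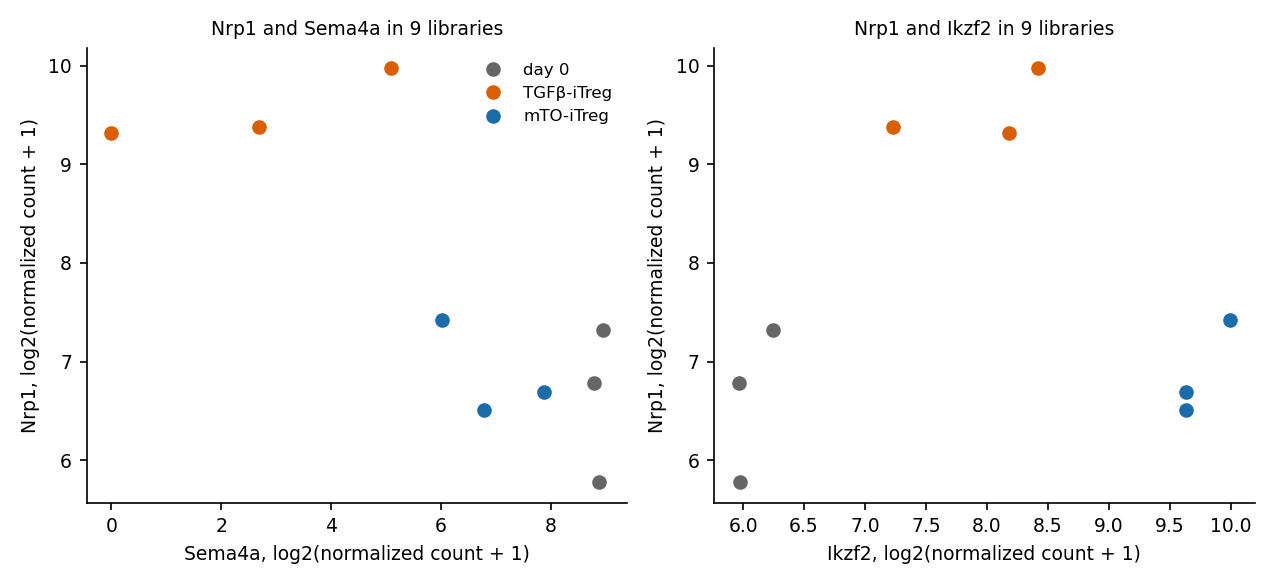
Nrp1 (vertical axes) against Sema4a (left) and Ikzf2 (right) in 9 libraries, all as log2 of the normalized count plus 1, coloured by group. The 3 TGFβ-iTreg libraries hold the highest Nrp1 and lowest Sema4a values, and the 3 mTO-iTreg libraries the highest Ikzf2 values beside Nrp1 values of 89.7 to 170 normalized counts.

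Sema4a, the ligand described for neuropilin-1 (chromosome 3, 88435959 to 88461182, minus strand), was highest on day 0, intermediate in mTO-iTreg cells and lowest in TGFβ-iTreg cells. Its level was 439, 468 and 493 in day 0 replicates 1, 2 and 3, then 0, 5.43 and 33.1 in TGFβ-iTreg cells and 64.1, 234 and 110.3 in mTO-iTreg cells. No 2 groups overlapped; among fitted genes, 17.8% separated downward from day 0 to TGFβ-iTreg cells, 20.3% downward from day 0 to mTO-iTreg cells and 25.9% upward from TGFβ-iTreg to mTO-iTreg cells. The means were 466 ± 27.1, 12.8 ± 17.8 and 136 ± 87.8 (SD, n = 3), so the day 0 mean was 36.3-fold the TGFβ-iTreg mean and 3.43-fold the mTO-iTreg mean, and the mTO-iTreg mean was 10.6-fold the TGFβ-iTreg mean. The log2 differences were -6.27 ± 0.90 SE (TGFβ-iTreg from day 0), -1.97 ± 0.90 (mTO-iTreg from day 0) and 4.31 ± 0.90 (mTO-iTreg from TGFβ-iTreg). The first of these was the furthest downward of all 10983 genes in this fit. Each SE rests on 1 spread pooled over the 3 groups. That of mTO-iTreg from day 0 thus also carries the spread within TGFβ-iTreg cells.

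The size of these ratios rests on few reads in TGFβ-iTreg cells, with 0, 8 and 67 counts in replicates 1, 2 and 3. The count of 0 in replicate 1 allows a level of up to 7.38, taking a limit of 3 counts. Without TGFβ-iTreg replicate 3, the day 0 mean was 172-fold and the mTO-iTreg mean 50.2-fold the TGFβ-iTreg mean. Without mTO-iTreg replicate 2, the mTO-iTreg mean fell short of the day 0 mean by 5.35-fold and exceeded that of TGFβ-iTreg cells by 6.79-fold. TGFβ-iTreg replicate 3 also had the most Nrp1 and the most Sema4a of its group, so within that group the 2 genes did not run opposite to each other. On day 0 replicate 3 likewise had the most of both. In mTO-iTreg cells, however, replicate 1 had the most Nrp1 (170) and the least Sema4a (64.1). Groups of 3 libraries are too small to read more from these orders.

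The summed level of the 10 dendritic cell and macrophage genes, mostly from H2-Ab1 and Cd74, had the same order of groups as Sema4a. Not every gene of the list had this order. Such cells also make Sema4a, and their part in its level was not tested. Of the 10 genes, H2-Ab1, an MHC class II gene, was at 588, 293 and 2463 on day 0, 33.1 to 88.5 in TGFβ-iTreg cells and 208 to 313 in mTO-iTreg cells. Fcer1g was at 57.9, 61.8 and 230 on day 0, against 0 to 6.1 and 0 to 8.87, and Tyrobp at 19.3, 48.4 and 86.5, against 0 to 3.46 and 0 to 4.09. Flt3 was at 1.75, 21.5 and 48.5 on day 0 and Itgax at 1.75, 0 and 66.5, both at 0 in all 3 mTO-iTreg libraries. Zbtb46 went the other way, at 0 in all 3 day 0 libraries and 18.4, 13.6 and 4.65 in mTO-iTreg cells. Without day 0 replicate 3 the ratio of day 0 to TGFβ-iTreg was 35.3-fold and that of day 0 to mTO-iTreg 3.33-fold. B cell genes, 7 of 9 in the table, summed to 16.1 to 90.7 on day 0, 30.6 to 79.3 in TGFβ-iTreg cells and 74.4 to 121 in mTO-iTreg cells.

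Sema4d, a ligand of plexin-B1, plexin-B2 and CD72 (chromosome 13, 51685529 to 51793747, minus strand), differed little between groups. It was at 454, 468 and 469 on day 0, 519, 505 and 463 in TGFβ-iTreg cells and 628, 671 and 532 in mTO-iTreg cells. The 3 mTO-iTreg libraries were above the 6 others, as for 25.8% of fitted genes against day 0 and 25.9% against TGFβ-iTreg cells, and the other groups overlapped. The means were 464 ± 8.24, 496 ± 28.8 and 610.5 ± 71.2 (SD, n = 3), and the mTO-iTreg mean was 1.32-fold the day 0 mean and 1.23-fold the TGFβ-iTreg mean. On the log2 scale these were 0.39 ± 0.14 SE and 0.30 ± 0.14, beside medians over all fitted genes of 0.09 and 0.13. Of all fitted genes, 38.6% and 42.4% differed at least as far upward. With each library scaled to the same total, the difference of mTO-iTreg from day 0 was 0.61 and that of TGFβ-iTreg from day 0 was 0.34 in place of 0.09.

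Sema4b (chromosome 7, 80186841 to 80226527) showed no separation of groups. Its level was 118, 226 and 132 on day 0, 145, 132 and 136 in TGFβ-iTreg cells and 106, 167 and 70.4 in mTO-iTreg cells. All 3 ranges overlapped, and the TGFβ-iTreg values lay inside both others. The means were 158 ± 58.8, 138 ± 6.87 and 114 ± 48.8 (SD, n = 3), with log2 differences of -0.14 ± 0.33 SE, -0.49 ± 0.33 and -0.35 ± 0.33 in the order TGFβ-iTreg from day 0, mTO-iTreg from day 0 and mTO-iTreg from TGFβ-iTreg. Within mTO-iTreg cells both Sema4a and Sema4b were highest in replicate 2.

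**Figure D3:**
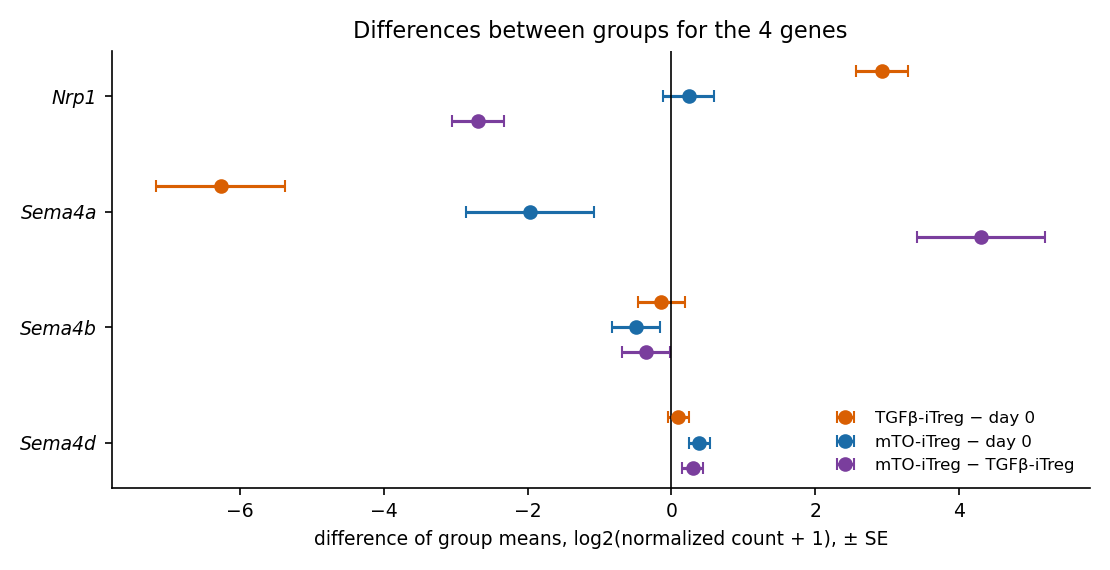
Difference of group means (horizontal axis, log2 of the normalized count plus 1, ± SE from the fit over all genes) for the 4 genes in 3 comparisons; comparisons share groups, so the 3 values of a gene are not independent. Nrp1 and Sema4a extend to 2.93 and -6.27 in opposite directions between TGFβ-iTreg and day 0 cells, while every Sema4b and Sema4d value lies within 0.5 of 0.

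Counted together, the libraries of the 2 groups did not overlap for 2 of the 4 genes between TGFβ-iTreg and day 0 cells, beside 35.9% of all fitted genes. The counts were 2 of 4 between mTO-iTreg and day 0 cells, beside 46.2%, and 3 of 4 between mTO-iTreg and TGFβ-iTreg cells, beside 44.6%. The genes were chosen on these comparisons, so nothing is read from the counts. In the annotation (GENCODE M21), the overlapping entries are small RNAs or an unverified transcript (Mir1903, Mir7011, Gm45206 and Gm23566) that were not analysed here.

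Genes whose pattern was most like each member were found by the root mean square difference of centred log2 values over the 9 libraries, among 9560 genes. Closest to Nrp1 were Pfn2, which encodes the actin-binding protein profilin 2 (difference 0.46), 1110032F04Rik (0.47), 5730508B09Rik (0.48), Nt5e, the adenosine-producing enzyme CD73 (0.50), and 2010204K13Rik (0.51). Pfn2 had means of 19.0, 167 and 30.7 in day 0, TGFβ-iTreg and mTO-iTreg cells, and Nt5e of 311, 2022 and 379. Closest to Sema4a were Dtx1, an E3 ubiquitin ligase of the Deltex family (0.94), Dzip1 (1.01), Dapl1 (1.12), the kinase gene Pak1 (1.18) and Epas1, which encodes HIF-2α (1.27). Dtx1 had means of 408, 9.54 and 47.8, and Dapl1 of 1802, 39.0 and 291. Around Sema4b stood Pagr1a (0.19), Dhrs7b (0.19), Utp18 (0.19), Zfp87 (0.20) and Qtrt1 (0.20), and around Sema4d the ribosomal protein genes Rpl15 (0.11) and Rpl28 (0.11), Ppp2ca, the catalytic subunit of phosphatase 2A (0.11), Serf2 (0.12) and Tceb2 (0.12). Reads of ribosomal protein genes can be shared with their pseudogenes. Nrp1 and Sema4a were 4.12 apart, and Sema4a ranked 9549 of 9560 in likeness to Nrp1. Sema4a also ranked 9506 in likeness to Sema4b and 9530 in likeness to Sema4d, so a low rank was not particular to Nrp1.

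The rest of the semaphorin pathway was read from 69 other genes in 5 lists, of which 56 were in the table and 34 had enough signal to be tested (at least 5 normalized counts in at least 3 libraries). By limma's moderated test at an adjusted p of 0.05, 5 of the 34 rose and 2 fell in TGFβ-iTreg against day 0 cells, 20.6% of them beside 18.6% of all 10983 genes, of which 9.78% rose and 8.8% fell. In mTO-iTreg against day 0 cells 10 rose and 6 fell, 47.1% beside 33.9% of all genes (19.4% up, 14.5% down), and in mTO-iTreg against TGFβ-iTreg cells 5 rose and 4 fell, 26.5% beside 26.6% (14.9% up, 11.8% down). The medians of the 34 log2 differences were 0.10, 0.31 and 0.06, against -0.02, 0.09 and 0.13 over all genes. The 2 comparisons with day 0 share the day 0 libraries.

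Most other semaphorins were rarely read: of 17, 12 were in the table and only Sema4c, Sema4f and Sema7a were tested. Sema4c, named after its values were seen, was at 0 in all 3 day 0 libraries and at 4.09, 10.5 and 8.64 in mTO-iTreg cells (limma adjusted p = 0.03, lost in 7 of 19 alternatives, 0.015 to 0.087, among them leaving out any day 0 library or mTO-iTreg replicate 2 or 3). Sema7a, a membrane-anchored semaphorin that signals through integrins and plexin-C1, was at 19.3, 0 and 27.4 on day 0, 148, 120 and 331 in TGFβ-iTreg cells and 113, 81.3 and 75.1 in mTO-iTreg cells. It rose 12.8-fold in TGFβ-iTreg cells (log2 difference 4.45 ± 0.93 SE, limma adjusted p = 0.0051) and 5.75-fold in mTO-iTreg cells (3.42 ± 0.93, limma adjusted p = 0.012; 0.076 with limma-voom on recovered counts, within 0.0029 to 0.076 over 20 alternatives). Without day 0 replicate 3 these ratios of Sema7a were 20.7-fold and 9.29-fold. The difference between the iTreg groups did not pass (-1.02 ± 0.93, limma adjusted p = 0.45; it passed in 1 of 20 alternatives), although their libraries did not overlap. Sema4f, a class 4 member like those followed here, was at 57.9, 29.6 and 71.7 on day 0 and at 9.84, 14.2 and 12.4 in TGFβ-iTreg cells, 4.37-fold lower (-1.96 ± 0.53, limma adjusted p = 0.02). That call was lost without TGFβ-iTreg replicate 1 (0.056) or 3 (0.052) or day 0 replicate 1 (0.065) or 3 (0.076), within 0.013 to 0.076 over 20 alternatives.

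Among the 13 receptors, 8 were tested; none passed in TGFβ-iTreg against day 0 cells, while in mTO-iTreg cells 2 rose and 1 fell against day 0 and 3 rose against TGFβ-iTreg cells. That is 37.5% of the 8 in each, beside 33.9% and 26.6% of all genes. The 1 that fell was Plxnc1, the plexin of Sema7a, named after its values were seen: it was at 40.4, 10.8 and 63.3 on day 0 and 6.14, 11.2 and 0 in mTO-iTreg cells, with overlap (limma adjusted p = 0.032). The Plxnc1 call was lost in 5 of 20 alternatives (0.013 to 0.13), among them without day 0 replicate 1 (0.094) or 3 (0.12) or mTO-iTreg replicate 3 (0.13), and without mTO-iTreg replicate 2 its ratio rose from 6.61-fold to 12.4-fold. Plxna1, a plexin that pairs with neuropilins to receive class 3 semaphorins, was at 21.1, 16.1 and 26.4 on day 0, 14.8, 26.4 and 31.1 in TGFβ-iTreg cells and 115, 122 and 70.4 in mTO-iTreg cells. It rose 4.83-fold over day 0 (2.21 ± 0.45, limma adjusted p = 0.002) and 4.25-fold over TGFβ-iTreg cells (2.07 ± 0.45, limma adjusted p = 0.0043). Plxnb2, a receptor for class 4 semaphorins, was at 30.0, 7.44 and 29.9 in mTO-iTreg cells, from 101 counts, with 1 count in all TGFβ-iTreg libraries, a ratio of 86.1 per unit of depth with a 95% counting interval of 15.1 to 3430 (limma adjusted p = 0.0073). Against day 0, at 7.02, 0 and 1.05, Plxnb2 passed at an adjusted p of 0.032 by limma, but 6 of 19 alternatives ended the call (0.014 to 0.11): limma-voom (0.083), leaving out both shallow libraries (0.095), and leaving out day 0 replicate 2 (0.10) or 3 (0.073) or mTO-iTreg replicate 1 (0.11) or 3 (0.10). The ratio of Plxnb2 to day 0 was 8.34-fold, and 42.6-fold without day 0 replicate 1. Plxna3 rose from 7.38, 1.36 and 0 in TGFβ-iTreg to 7.50, 31.0 and 48.5 in mTO-iTreg cells (limma adjusted p = 0.028). For Plxna3 the call was lost without TGFβ-iTreg replicate 2 (0.07) or 3 (0.11), without mTO-iTreg replicate 2 (0.085) or 3 (0.12), and under quantile normalization (0.063), within 0.013 to 0.12 over 19 alternatives. Its ratio was 9.96-fold, 42.8-fold without TGFβ-iTreg replicate 1 and 6.61-fold without mTO-iTreg replicate 3.

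Besides Plxnb2 and Nrp1 itself, 4 further receptors of Sema4a or Sema4d and the second neuropilin were rarely read or did not pass. Plxnb1 held 6, 15 and 4 counts in day 0, TGFβ-iTreg and mTO-iTreg cells. Cd72, a semaphorin 4D receptor of B cells, was at 14.0, 2.69 and 5.27 on day 0, 4.92, 8.14 and 4.45 in TGFβ-iTreg cells and 24.6, 20.5 and 8.64 in mTO-iTreg cells (limma adjusted p = 0.96, 0.20 and 0.19 in the 3 comparisons). Plxnd1, a plexin that also receives semaphorin 4A, was at 17.5, 13.4 and 17.9 on day 0, 4.92, 21.0 and 19.3 in TGFβ-iTreg cells and 62.7, 51.5 and 17.9 in mTO-iTreg cells (limma adjusted p = 0.79, 0.17 and 0.10). Timd2, which encodes the semaphorin 4A receptor TIM-2, had 0, 4 and 13 counts and was not tested. Nrp2, the second neuropilin, was read at 0 to 16.8 with no difference past the threshold, from 21, 38 and 34 counts.

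**Figure D4:**
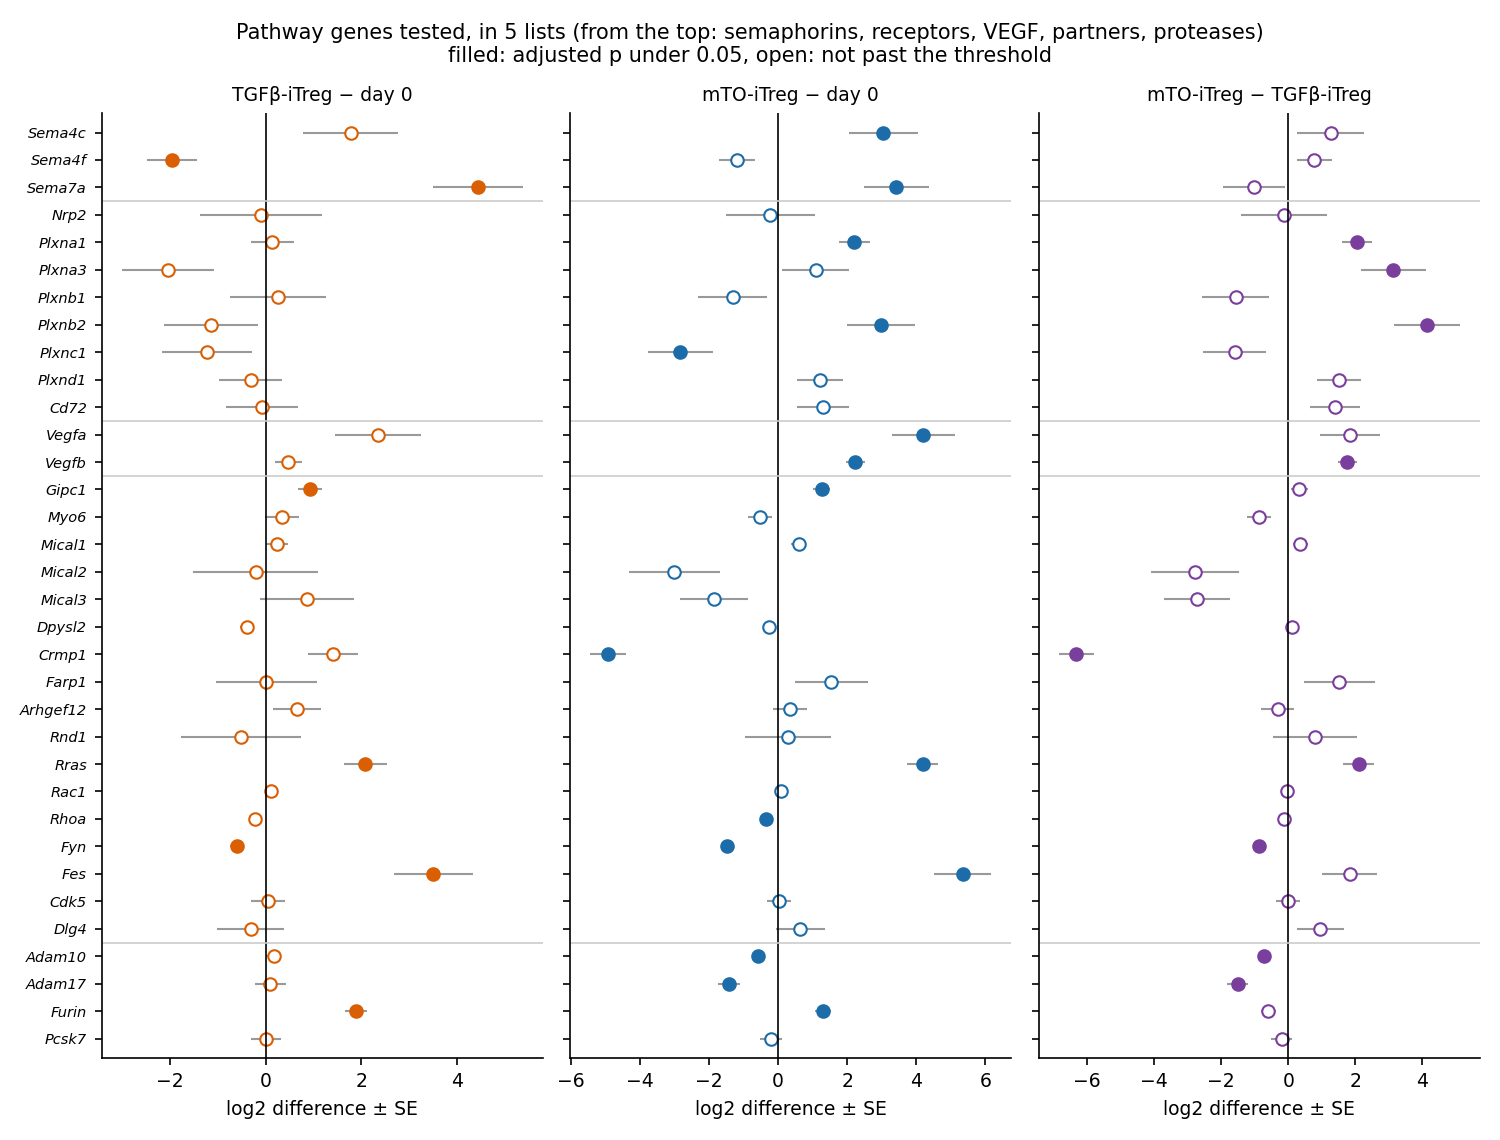
Log2 difference ± SE (horizontal axes) of the 34 tested pathway genes in 3 comparisons, grouped in 5 lists by grey lines; filled points passed an adjusted p of 0.05 by limma. Receptors have no filled point between TGFβ-iTreg and day 0 cells, and Vegfa, Vegfb, Plxna1 and Plxnb2 lie to the right in the middle panel.

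Of the VEGF family, only Vegfa and Vegfb were tested, and both had their highest mean in mTO-iTreg cells. Vegfc held 0, 9 and 0 counts in day 0, TGFβ-iTreg and mTO-iTreg cells, and Pgf 0, 6 and 6. Vegfb was at 50.9, 40.3 and 47.5 on day 0, 56.6, 79.3 and 58.8 in TGFβ-iTreg cells and 241, 234 and 191 in mTO-iTreg cells. It rose 4.80-fold over day 0 (2.24 ± 0.28, limma adjusted p = 4.8e-05) and 3.42-fold over TGFβ-iTreg cells (1.77 ± 0.28, limma adjusted p = 0.00049). Vegfa was at 3.51, 24.2 and 0 on day 0, 22.1, 23.7 and 25.7 in TGFβ-iTreg cells and 86.6, 154 and 51.8 in mTO-iTreg cells, higher than day 0 by 4.21 ± 0.90 (limma adjusted p = 0.0027) and not past the threshold against TGFβ-iTreg cells (1.85 ± 0.90, limma adjusted p = 0.15; it passed in 5 of 20 alternatives). The ratio of Vegfa to day 0 was 10.6-fold, and 55.5-fold without day 0 replicate 2. So the group with the most Nrp1 was not the group with the most Vegfa or Vegfb.

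Of 17 intracellular partners tested, 3 rose and 1 fell in TGFβ-iTreg against day 0 cells (23.5%), 3 rose and 3 fell in mTO-iTreg against day 0 cells (35.3%), and 1 rose and 2 fell between the iTreg groups (17.6%), beside 18.6%, 33.9% and 26.6% of all genes. Gipc1, which binds the cytoplasmic tail of neuropilin-1, rose from 154, 140.0 and 91.8 on day 0 to 251, 260.4 and 212 in TGFβ-iTreg cells (0.93 ± 0.25, limma adjusted p = 0.018) and to 400.4, 267 and 259 in mTO-iTreg cells (1.26 ± 0.25, limma adjusted p = 0.0014). The first of these calls on Gipc1 was lost without TGFβ-iTreg replicate 1 (0.059) or 2 (0.066), without day 0 replicate 3 (0.067) or without both shallow libraries (0.073), within 0.0035 to 0.073 over 20 alternatives. Rras, a small GTPase on which plexins act, rose from 31.6, 10.8 and 58.0 on day 0 to 103, 129 and 126 in TGFβ-iTreg cells (2.08 ± 0.45, limma adjusted p = 0.0061) and to 457, 419 and 701 in mTO-iTreg cells (4.18 ± 0.45, limma adjusted p = 1.4e-05). With limma-voom the TGFβ-iTreg call on Rras was lost (0.061, within 0.00083 to 0.061 over 20 alternatives). Without day 0 replicate 3 the ratios of Rras to day 0 were 5.64-fold and 24.8-fold in place of 3.57-fold and 15.7-fold. The kinase gene Fes had 6 counts on day 0, 104 in TGFβ-iTreg cells and 400 in mTO-iTreg cells; all 6 day 0 counts were in replicate 3. It rose by 3.51 ± 0.82 (limma adjusted p = 0.0097; 0.16 with limma-voom, within 0.0012 to 0.16 over 20 alternatives) and 5.34 ± 0.82 (limma adjusted p = 0.00025). Among those that fell, and named after their values were seen, was Fyn, a Src-family kinase that binds plexins, at 1819, 1839 and 2069 on day 0, 1281, 1212 and 1284 in TGFβ-iTreg cells and 558, 845 and 676 in mTO-iTreg cells. Fyn fell by 0.60 ± 0.15 (limma adjusted p = 0.013; lost with equal totals, 0.14, and without both shallow libraries, 0.064, within 0.0057 to 0.14 over 20 alternatives) and by 1.48 ± 0.15 (limma adjusted p = 7.4e-06), and was lower in mTO-iTreg than TGFβ-iTreg cells (limma adjusted p = 0.00072). Rhoa, a small GTPase of the cytoskeleton, fell by 0.34 ± 0.11 in mTO-iTreg against day 0 cells (limma adjusted p = 0.032), a call lost in 7 of 20 alternatives (0.013 to 0.42), among them equal totals (0.42) and leaving out day 0 replicate 1 (0.11) or 2 (0.068) or mTO-iTreg replicate 2 (0.10) or 3 (0.054).

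Crmp1, a cytosolic mediator of semaphorin signals, had the largest difference of the 34 between the iTreg groups. It was at 52.6, 37.6 and 50.6 on day 0, 123, 135 and 120.1 in TGFβ-iTreg cells and 0.682, 0 and 1.33 in mTO-iTreg cells, the last from 3 counts in all. Per unit of depth, TGFβ-iTreg cells had 192 times the mTO-iTreg level, with a 95% counting interval of 65.5 to 937, and day 0 cells had 74.4 times, with an interval of 24.7 to 367. Both differences passed (limma adjusted p = 3.3e-06 and 1.2e-05), while the difference of TGFβ-iTreg from day 0 did not (1.42 ± 0.52, limma adjusted p = 0.076, but past the threshold in 5 of 20 alternatives, 0.011 to 0.27). The ratio of means between day 0 and mTO-iTreg cells was 70.1-fold, and 138-fold without mTO-iTreg replicate 3; between the iTreg groups it was 188-fold, 125-fold without mTO-iTreg replicate 2 and 369-fold without replicate 3. Crmp1 thus shared with Nrp1 a higher level in TGFβ-iTreg than in mTO-iTreg cells, without overlap, as did 18.7% of fitted genes. Unlike Crmp1, Nrp1 had overlapping ranges in mTO-iTreg and day 0 cells.

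The proteases divided. Furin, a convertase that cleaves several semaphorins as well as the TGFβ precursor, rose from 181, 151 and 171 on day 0 to 443, 600.2 and 907 in TGFβ-iTreg cells (1.89 ± 0.23, limma adjusted p = 9.6e-05) and to 376, 451 and 414 in mTO-iTreg cells (1.30 ± 0.23, limma adjusted p = 0.00063). Adam17, a shedding protease of the cell surface, was at 130, 116 and 174 on day 0 and 140, 162 and 140 in TGFβ-iTreg cells, and fell to 37.5, 42.8 and 81.7 in mTO-iTreg cells (2.59-fold below day 0, limma adjusted p = 0.0038; 2.73-fold below TGFβ-iTreg, limma adjusted p = 0.0034). Adam10, its relative, was at 323, 392 and 350 on day 0, 386, 393 and 412 in TGFβ-iTreg cells and 216, 269 and 232 in mTO-iTreg cells, 1.66-fold below TGFβ-iTreg (limma adjusted p = 0.0054) and 1.48-fold below day 0 (limma adjusted p = 0.017). The day 0 call on Adam10 was lost with equal totals (0.14), without day 0 replicate 2 (0.062), without mTO-iTreg replicate 1 (0.06) and without both shallow libraries (0.075), within 0.0097 to 0.14 over 20 alternatives.

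Genes of intestinal epithelium, the origin of the organoids, were sparse in mTO-iTreg cells: 8 of 14 were in the table, with summed levels of 43.6 to 125, below the 128 to 141 of TGFβ-iTreg cells that met no organoid and above the 15.8 to 22.2 of day 0. In TGFβ-iTreg cells the sum was almost wholly Epcam (74.1 to 113) and Cdh1 (25.1 to 52.9), which were at 21.1 to 89.0 and 9.31 to 20.6 in mTO-iTreg cells. Lgals4 was at 9.55, 9.93 and 9.96 in mTO-iTreg cells, above the 0, 3.39 and 0.494 of TGFβ-iTreg cells and within the 0 to 11.6 of day 0. Krt18 was at 0, 0 and 4.65, Muc2 at 0, 0 and 0.664, and Lgr5 and Cdx1 at 0 in all 3 mTO-iTreg libraries; Vil1 was at 0, 2.48 and 0. Their part in the plexin and VEGF levels was not tested.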

How the data were processed

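RNA of 9 samples was sequenced with modified CEL-Seq, per the labels' protocols, a method that reads transcript 3′ ends. Per the submitters' processing notes the tools were BWA and DESeq2 and the build mm10; versions, counting and strand are not stated. The values the authors deposited are other than raw counts: normalized counts, whole multiples of 1 value per library. Dividing each library by its smallest value above 0 gave whole numbers (within 0.1) for 100% of values, and these are the counts and depths in the text. Samples were grouped by their titles.

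Genes with at least 5 normalized counts in at least 3 libraries (10983) were fitted as log2 of the value plus 1 with 3 group means (limma 3.58.1, R 4.3.3, lmFit and eBayes with a trend, 6 residual degrees of freedom), with Benjamini-Hochberg adjustment over all of them at 0.05. The script was tested on simulated data. The 4 genes and all lists were chosen with earlier results of these data known. Of the pathway lists, 12 genes were named whatever their result, plus up to 6 called genes per comparison with the largest changes, a mean of at least 20 and no overlap. Intervals and limits cover counting error only, since whether reads were collapsed to molecules is not given. Alternatives were pseudocounts, filters, scalings, fits of 2 groups, a replicate block, each library left out and limma-voom on recovered counts, added after seeing the data. Promoter windows are from RefSeq (GRCm38.p6), positions from GENCODE M21 (GRCm38, the same assembly as mm10). Figures used matplotlib 3.10.9.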

Additional observations from a re-analysis of the deposited data

How the results depend on the processing

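Of 240 recomputed differences of Nrp1, Sema4a, Sema4b and Sema4d, 238 moved by less than the gene's own residual SD and none that separated the groups changed sign. The 2 that moved were those of Sema4d from day 0 with equal totals, 0.34 for TGFβ-iTreg cells and 0.61 for mTO-iTreg cells, where the median of all genes was 0.23 and 0.31. Part of this count was fixed in advance. Filters, fits of 2 groups, the replicate block and leaving out a library of the group not compared cannot move a difference of group means. The residual SD is also a wide limit for Sema4a, at 1.57 on the log2 scale.

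With 1 library left out, in the order TGFβ-iTreg from day 0, mTO-iTreg from day 0 and mTO-iTreg from TGFβ-iTreg, the log2 differences were 2.51 to 3.28, -0.18 to 0.59 and -2.96 to -2.48 for Nrp1, -7.53 to -4.98, -2.46 to -1.53 and 3.01 to 5.56 for Sema4a, -0.33 to 0.14, -0.81 to -0.19 and -0.67 to -0.05 for Sema4b, and 0.06 to 0.14, 0.32 to 0.48 and 0.22 to 0.39 for Sema4d. The genes called in these comparisons numbered 1392 to 2002, 3034 to 3751 and 2211 to 3154 of all tested, and 5 to 8, 12 to 17 and 8 to 11 of the pathway lists.

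Without the shallowest day 0 and TGFβ-iTreg libraries, 1142 genes were called between these groups in place of 2040, with fewer samples. With limma-voom, 15 pathway genes (7 up, 8 down) were called between the iTreg groups in place of 9; the cause was not tested. Of 32 calls on named pathway genes, 20 held under all alternatives and 12 were lost under some, as given with each gene. Differences that passed only under some alternatives, beside those given with each gene, were Furin and Fes between the iTreg groups (4 and 3 of 20), Sema4f in mTO-iTreg and Vegfa in TGFβ-iTreg cells against day 0 (4 and 2 of 20). Equal totals raised the upward share of calls from 52.6% to 75.5% in TGFβ-iTreg and from 57.1% to 70.6% in mTO-iTreg against day 0; between the iTreg groups the share was 55.8%, 48.6% with TMM factors and 46.8% with quantile normalization. A planned edgeR test of the recovered counts was not run, and limma-voom on these counts took its place.

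Same-numbered libraries correlated at -0.05 to 0.06 once group means were removed, and 5 of 9 were closest to their own number. With so few libraries in a group this cannot decide whether the numbers mark pairs. The labels name no pairs, and the numbers were not used as pairs. With the replicate block, 1938, 3670 and 2838 genes and 7, 16 and 9 pathway genes were called. The differences of Nrp1 from day 0, 2.93 and 0.24, had an SE of 0.32 in place of 0.36. The differences themselves could not change, since every replicate number occurs once in each group.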
